A study of Danio rerio with 3 samples.

Results

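Of 672 anal fin endothelial wells with at least 500 unique molecular identifiers (UMIs), 188 carried transcripts of a blood vessel marker together with lymphatic ones, and these are called mixed wells. A UMI is a random tag that lets each captured transcript be counted once. A well was mixed if it held at least 3 UMIs of aqp8a.1 and at least 1 UMI summed over lyve1a, mrc1a, stab1 and prox1a, a sum called L here. They were set against 221 single-kind wells of the same plates, namely 147 blood-only wells with at least 3 aqp8a.1 UMIs and an L of 0, and 74 lymphatic-only wells with an L of at least 1 and no aqp8a.1. The other wells of that depth were 128 with 1 or 2 aqp8a.1 UMIs and some L, 68 with 1 or 2 aqp8a.1 UMIs and no L, and 67 with neither. Membership was selected on these measured UMI counts. All wells came from a single group of samples, for which the labels name the fli1a:dsRed reporter and no mutation or treatment. Anal fins of immature zebrafish at stage II-III were digested, 80 fins being named in the labels of each plate, and dsRed-positive cells were sorted into 3 plates of 384 wells. MARS-seq, which tags the 3' ends of polyadenylated transcripts with a well barcode and a UMI, was used to make the libraries. Whether each plate had its own fish is not in the labels, so every p-value below measures the spread between 3 plates, which may be technical.

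Lymphatic endothelial cells line the vessels that drain tissue fluid, and blood endothelial cells line the vessels that carry blood. lyve1a encodes a hyaluronan receptor, mrc1a a mannose receptor and stab1 a scavenger receptor, and all of these are used as lymphatic or venous endothelial markers in zebrafish. prox1a encodes the transcription factor that sets lymphatic identity. aqp8a.1 encodes a water channel of blood vessel endothelium. The title of the series concerns blood vessels that arise from lymphatic vessels, and the question addressed here is what else is found in wells that hold both kinds of marker.

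The 3 plates held 559559, 481392 and 221176 UMIs. The authors listed 384, 384 and 268 wells of plates 1, 2 and 3 as analysed, 1036 of 1152 in all, and 289, 271 and 112 of these reached 500 UMIs. All 384 barcodes were shared by the 3 plates. Plate 3 stood apart in depth, with a median of 382 UMIs per listed well against 1064.5 on plate 1 and 914.5 on plate 2. Few wells were rich in transcripts of other cell types. More than 5% of UMIs fell on marker lists of such types in 1 of 188 mixed wells, 2 of 147 blood-only wells and 0 of 74 lymphatic-only wells. The tables mark no well as empty, so the UMIs that a well without a cell receives were not measured, and no doublet caller was run. Whether a mixed well held more than 1 cell, or RNA that was free in the sort, was not tested.

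Both markers chose the wells, so their levels are given as a description. Mixed wells were 89 of 289 wells on plate 1, 80 of 271 on plate 2 and 19 of 112 on plate 3, which is 30.8%, 29.5% and 17.0%. The mean share was 25.8% ± 7.64 (SD, n = 3 plates), and over all plates it was 28.0%, with an exact binomial 95% interval of 24.6% to 31.5% that covers counting error only. aqp8a.1 had a median of 9 UMIs in a mixed well, with a lowest value of 3 and a highest of 107. L had a median of 2, with a lowest value of 1 and a highest of 46. lyve1a supplied most of it, with 546 of 830 UMIs and a UMI in 138 of 188 mixed wells. stab1 was detected in 67 mixed wells, mrc1a in 61 and prox1a in 16.

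The label of a mixed well rested on a single lymphatic UMI in many cases. L was 1 in 88 mixed wells and 2 in 34. Lymphatic-only wells entered at an L of 1 too, so the label of some of them also rests on a single UMI. At the lower edge of both limits, 6 mixed wells had exactly 3 aqp8a.1 UMIs and an L of 1. Just outside stood 49 wells with 2 aqp8a.1 UMIs and some L, and 15 with 3 aqp8a.1 UMIs and no L. No well from 450 to below 500 UMIs met both marker limits, and 8 wells below 500 UMIs did.

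**Figure D1:**
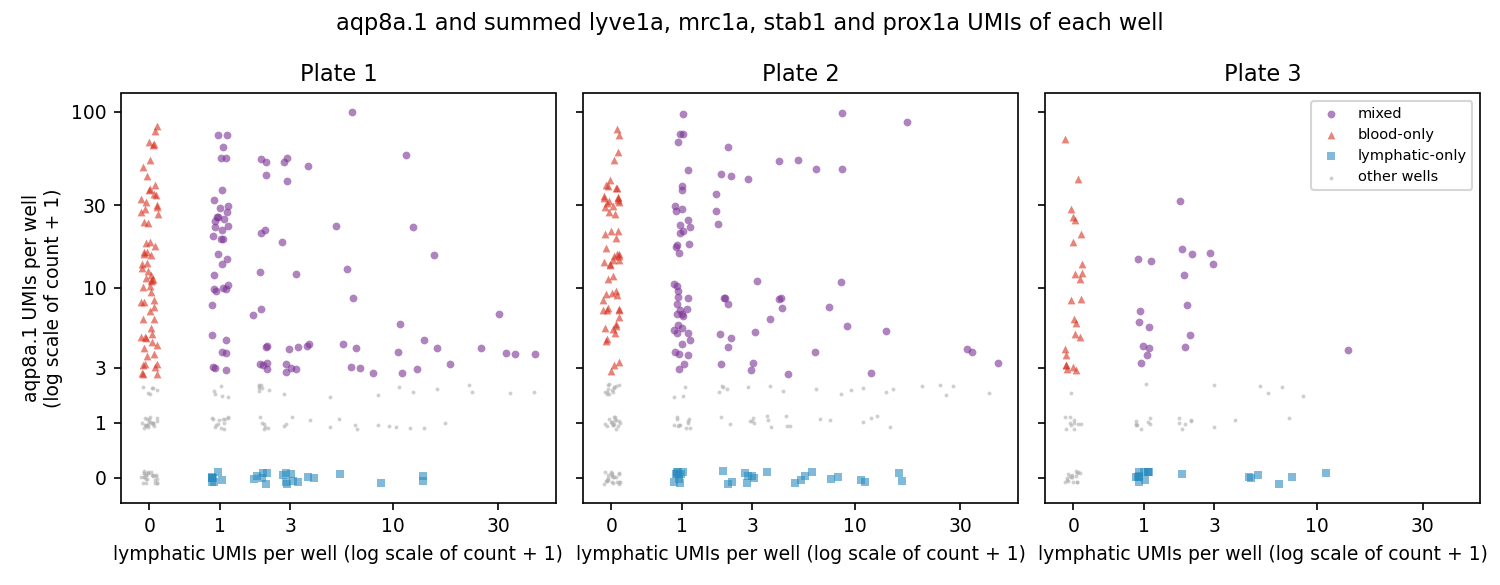
Each point is 1 listed well of at least 500 UMIs, with its lymphatic UMIs (lyve1a, mrc1a, stab1 and prox1a summed) on the horizontal axis and its aqp8a.1 UMIs on the vertical axis, both on a log scale of the count + 1 and slightly jittered. The 188 mixed wells lie mostly along the left edge at an L of 1 or 2 or along the bottom at 3 to 7 aqp8a.1 UMIs, and 10 wells reach both 10 aqp8a.1 UMIs and an L of 6.

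Mixed wells were the deepest of the classes compared, which is a description because total UMIs are part of the rule. Median depth on plates 1, 2 and 3 was 1888, 1999 and 954 UMIs in mixed wells, against 1351, 1204.5 and 885 in blood-only wells and 1177, 1164 and 798 in lymphatic-only wells. The gap was wide on plates 1 and 2 and narrow on plate 3, and the ranges of the classes overlapped on every plate. The mixed share climbed with depth, being 35 of 242 wells from 500 to below 1000 UMIs (14.5%), 72 of 265 from 1000 to below 2000 (27.2%), 54 of 128 from 2000 to below 4000 (42.2%) and 27 of 37 with 4000 or more (73.0%). Below 1000 UMIs the shares were 10.6% on plate 1, 15.6% on plate 2 and 17.9% on plate 3. From 1000 to below 2000 UMIs they were 33.1% on plate 1, 25% on plate 2 and 15% on plate 3. Plate 3 thus had the highest share in the lower range and the lowest in the next. Its wells were few at greater depth, with 5 of 112 at 2000 UMIs or more.

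**Figure D2:**
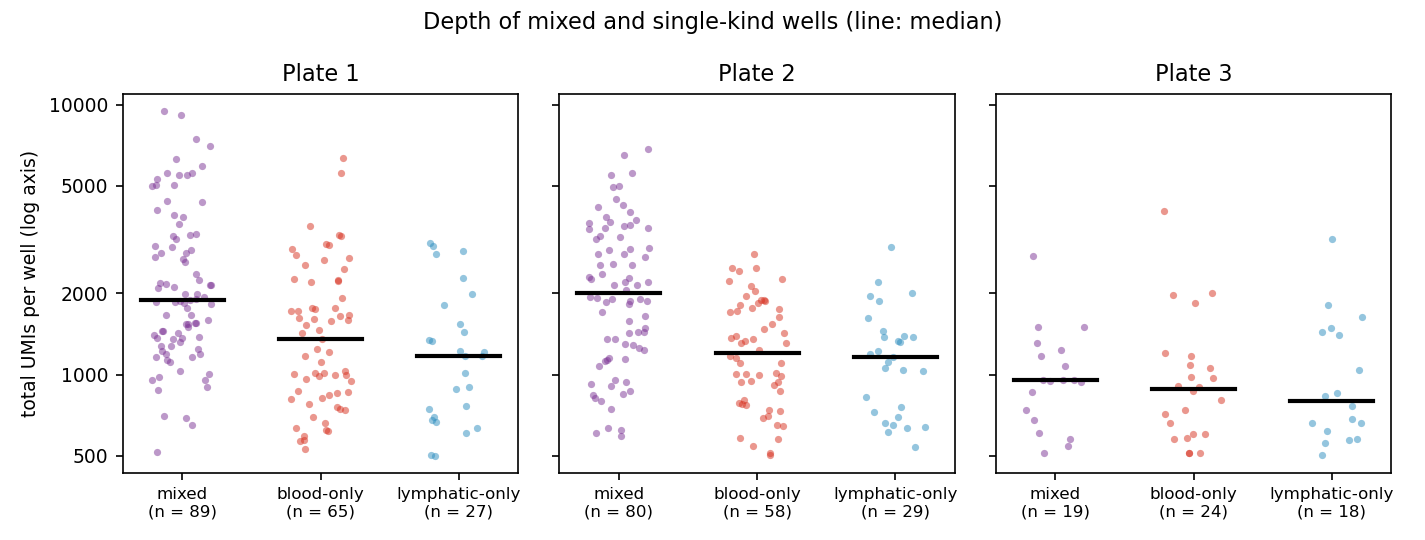
Total UMIs of each well on a log axis, by class and plate, with a line at the median and the number of wells under each class. Mixed wells have medians of 1888, 1999 and 954 UMIs on plates 1, 2 and 3, above those of blood-only and lymphatic-only wells on each plate.

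When every well was thinned at random to 500 UMIs, 50 of the 188 mixed wells still met the mixed limits. Another 54 then read as blood-only and 20 as lymphatic-only, 25 had 1 or 2 aqp8a.1 UMIs with L, 31 had 1 or 2 without L, and 8 had neither marker. The thinned share of mixed wells was 8.14% ± 3.00 (SD, n = 3 plates) of the listed wells with at least 500 UMIs. It was 4.84% on plate 1, 8.86% on plate 2 and 10.7% on plate 3.

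One marker usually led the other by a wide margin. aqp8a.1 outnumbered L in 152 of 188 mixed wells, which are called aqp8a.1-led, L outnumbered aqp8a.1 in 26, called L-led, and the counts were equal in 10. aqp8a.1 made up 90% to 100% of the rule's UMIs in 77 wells and 80% to under 90% in 43. It made up 40% to under 50% in 2 wells and under 40% in 24. The aqp8a.1-led wells had medians of 13.5 aqp8a.1 UMIs and 1 L UMI, at a median depth of 1584.5 UMIs. The L-led wells had medians of 4 aqp8a.1 UMIs (3 to 7) and 14 L UMIs (5 to 46), at a median depth of 3548.5 UMIs. Scaled to 1000000 UMIs of the class (CPM), aqp8a.1 stood at 10325 in aqp8a.1-led wells and 1117 in L-led wells, and L at 967 in aqp8a.1-led wells and 5014 in L-led wells. There were 17 L-led wells on plate 1, 8 on plate 2 and 1 on plate 3.

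Wells with many UMIs of either marker gave the same picture from each end. Among 88 wells with an L of at least 6, aqp8a.1 had 3 or more UMIs in 37 at a median depth of 3635, 1 or 2 UMIs in 37 at a median depth of 2077, and none in 14 at a median depth of 1140. Among 115 wells with at least 20 aqp8a.1 UMIs, L was 3 or more in 15 at a median depth of 3825, 1 or 2 in 46 at a median depth of 1771, and 0 in 54 at a median depth of 1274.5. In both sets the wells with more of the opposite marker were the deeper ones. The level of that marker rose as well. From wells with 1 or 2 UMIs to wells with 3 or more, aqp8a.1 went from 694 to 4656 CPM in the first set. L went from 592 to 1480 CPM in the second. The groups were formed on these same UMIs, so both orders are a description. Only 10 mixed wells, chosen after their values were seen, held at least 10 aqp8a.1 UMIs and an L of at least 6, with a median depth of 3730.

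Genes outside the rule were then used to place mixed wells between the kinds. For each plate, 25 blood-side and 25 lymphatic-side genes were ranked on the ratio of blood-only to lymphatic-only sums in the other 2 plates, without the rule's genes. Only 3 blood-side genes were picked for all 3 plates, namely the water channel gene aqp1a.1, the homeobox gene meox1 and the amine oxidase gene aoc2. On the lymphatic side 6 were, among them cxcl12a, which encodes a chemokine, ctsla, a lysosomal cathepsin gene, and sepp1a, a secreted selenoprotein gene. The log2 ratio of blood-side to lymphatic-side UMIs was -1.02, -0.06 and 0.17 in mixed wells of plates 1, 2 and 3. It was 0.44, 0.58 and 0.11 in blood-only wells and -1.50, -1.74 and -2.22 in lymphatic-only wells. On a scale with lymphatic-only wells at 0 and blood-only wells at 1, mixed wells lay at 0.25, 0.72 and 1.03, with a mean of 0.67 ± 0.39 (SD, n = 3 plates). They lay between the kinds on plates 1 and 2, and level with blood-only wells on plate 3. The plate 3 position rests on 89 blood-side and 79 lymphatic-side UMIs of mixed wells, and aqp1a.1 supplied a large part of the blood-side ones. The plates differed in the share of L-led wells and in depth. With each well thinned to 500 UMIs, so that deep wells did not weigh more, the positions were 0.57, 0.67 and 0.92. The place of single plates varied with the limits, being -0.18, 0.68 and 1.25 with an L of at least 2, and 0.53, 0.94 and 0.55 in wells of 500 to 1500 UMIs. A single aqp8a.1-led well of plate 2, rich in globin transcripts, supplied 322 of the 972 blood-side UMIs of its plate's aqp8a.1-led wells, and the globin genes hbae1 and hbz were among the blood-side genes of 2 plates. Without wells holding over 5% of UMIs of other cell types, the positions were 0.25, 0.52 and 0.94, a mean of 0.57 ± 0.35 (SD, n = 3 plates).

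On this scale the mixed wells of either lead lay far apart. aqp8a.1-led wells had log2 ratios of -0.02, 0.51 and 0.61 on plates 1, 2 and 3, a mean of 0.37 ± 0.34, against 0.38 ± 0.24 in blood-only wells (SD, n = 3 plates each). The ratio of aqp8a.1-led wells was below that of blood-only wells on plates 1 and 2 and above it on plate 3. Without wells rich in other cell types it was -0.02, 0.09 and 0.77 in aqp8a.1-led wells, against 0.43, 0.64 and 0.50 in blood-only wells. L-led wells had log2 ratios of -3.42 and -2.57 on plates 1 and 2 and -3.17 in the single well of plate 3, each below the ratio of lymphatic-only wells of its plate. Every L-led well held an L of 5 or more, while lymphatic-only wells entered at an L of 1. Wells with equal counts had -1.55 on plate 1 and -1.31 on plate 2.

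Well by well, the blood-side share of side-gene UMIs had a median of 41.7% in the 177 mixed wells with at least 5 such UMIs, against 57.1% in 130 blood-only wells and 16.7% in 71 lymphatic-only wells. It was 25% or less in 57 mixed wells, between 25% and 75% in 88, and 75% or more in 32. Of the 71 lymphatic-only wells, 49 had a share of 25% or less and 8 had 75% or more. The shares between 25% and 75% were held by 49.7% of mixed wells, 57.7% of blood-only wells and 19.7% of lymphatic-only wells. A middling share was therefore at least as common among blood-only wells as among mixed wells, and it rests on few UMIs in many wells. The median was 50% in aqp8a.1-led wells and 10.1% in L-led wells, and 25 of 26 L-led wells had a share of 25% or less. In the 10 wells rich in both markers the share ran from 5% to 77.4%.

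**Figure D3:**
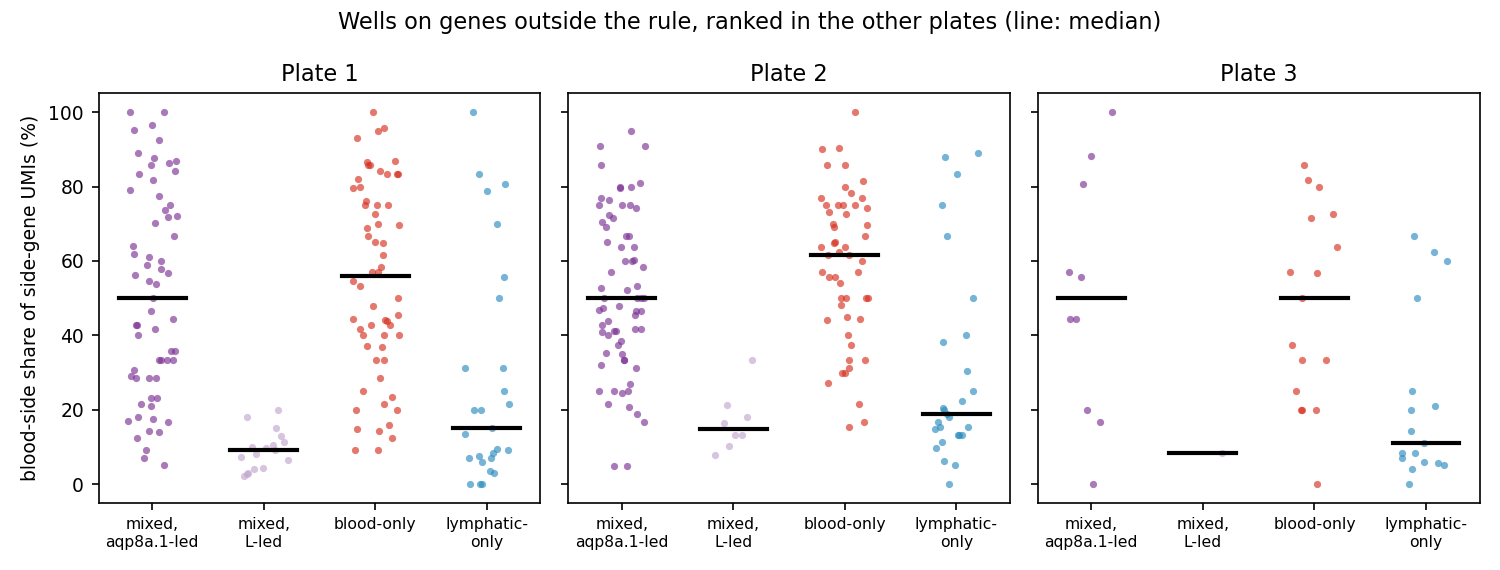
Blood-side share of side-gene UMIs in each well with at least 5 such UMIs, by class and plate, with mixed wells split by leading marker, wells with equal counts left out and a line at the median. aqp8a.1-led wells overlap blood-only wells with a median of 50% on each plate, while 25 of 26 L-led wells have 25% or less.

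Whole profiles were compared after UMIs had been summed per plate and class, with the rule's genes left out, with plate as a block in edgeR (quasi-likelihood test, p-values adjusted by Benjamini-Hochberg). The single-kind classes give the scale, with 32 of 514 genes called between blood-only and lymphatic-only wells (6.23%), 16 higher (3.11%) and 16 lower (3.11%) in blood-only wells at an adjusted p under 0.05. Only 1 gene of 455 was called between them without plate 2. Mixed wells differed from lymphatic-only wells at 3 of 514 genes (0.584%), 2 higher (0.389%) and 1 lower (0.195%), and from blood-only wells at 0 of 514 (0%). All contrasts on these sums share samples with each other, so their values are given side by side for each gene.

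plvapb (row vsg1), which encodes a protein of the diaphragms that bridge endothelial pores, was higher in mixed than in lymphatic-only wells. It had 2825, 2996 and 4187 CPM in mixed wells, against 2374, 2571 and 2554 in blood-only wells and 1493, 2143 and 1813 in lymphatic-only wells. Mixed wells were highest on every plate and overlapped neither single kind. The log2 fold change of mixed over lymphatic-only wells was 0.80 ± 0.15 (SE, edgeR adjusted p = 0.00705), and that of mixed over blood-only wells was 0.28 ± 0.12 (SE, edgeR adjusted p = 0.464). The call against lymphatic-only wells was lost without plate 1, 2 or 3, with edgeR adjusted p of 0.0941, 0.0866 and 0.0865 for vsg1. The order above blood-only wells did not hold in thinned or depth-limited wells. There the log2 fold change of vsg1 was -0.012 at 500 UMIs, -0.064 in wells of 500 to 1500 UMIs and -0.15 with classes from thinned counts (edgeR adjusted p = 0.997, 0.956 and 0.892). In the window of 500 to 1500 UMIs mixed wells were still deeper, with medians of 1189, 1081 and 947 UMIs on plates 1, 2 and 3. Blood-only wells had 861, 943 and 775. With wells thinned to 500 UMIs and classes taken from the thinned counts, the log2 fold change against lymphatic-only wells was 0.15 (edgeR adjusted p = 0.83).

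fabp11a, which encodes a fatty acid-binding protein, was also higher in mixed than in lymphatic-only wells. It had 6102, 7069 and 5045 CPM in mixed wells, against 7713, 7725 and 5224 in blood-only wells and 4858, 3807 and 2486 in lymphatic-only wells. Mixed wells overlapped blood-only wells and lay above all lymphatic-only values. Its log2 fold change was 0.69 ± 0.12 against lymphatic-only wells (SE, edgeR adjusted p = 0.00705) and -0.24 ± 0.11 against blood-only wells (SE, edgeR adjusted p = 0.517). The fabp11a call was lost without plate 2 (edgeR adjusted p = 0.48) and without plate 3 (edgeR adjusted p = 0.0865).

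sepp1a was lower in mixed than in lymphatic-only wells. It had 771, 578 and 958 CPM in mixed wells, against 394, 757 and 735 in blood-only wells and 1493, 2341 and 2693 in lymphatic-only wells. Mixed wells overlapped blood-only wells and lay below every lymphatic-only value. Its log2 fold change was -1.46 ± 0.24 against lymphatic-only wells (SE, edgeR adjusted p = 0.00553). The sepp1a call was lost without plate 2 (edgeR adjusted p = 0.288) and without plate 3 (edgeR adjusted p = 0.0865).

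The other 5 blood vessel markers tested did not pass against lymphatic-only wells, and 4 of them had a positive log2 fold change. The exception was kdr, a receptor gene for vascular endothelial growth factor, at -0.50 ± 0.56 (SE, edgeR adjusted p = 0.851). aqp1a.1 had 375, 594 and 2169 CPM in mixed wells, against 1154, 1383 and 1122 in blood-only wells and 190, 197 and 104 in lymphatic-only wells. Mixed wells lay above lymphatic-only wells on each plate and spread far more than either single kind, with the plate 3 value above every blood-only value. The log2 fold change of aqp1a.1 was 2.03 ± 0.55 against lymphatic-only wells and -0.88 ± 0.34 against blood-only wells (SE, edgeR adjusted p = 0.165 and 0.423). kdrl, another such receptor gene, had 375, 541 and 1110 CPM in mixed wells, against 478, 822 and 1238 in blood-only wells and 190, 310 and 207 in lymphatic-only wells. Its log2 fold change was 1.26 ± 0.34 against lymphatic-only wells (SE, edgeR adjusted p = 0.165). kdrl levels of mixed wells lay between the single kinds on each plate.

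Against blood-only wells no gene was called, while 49 of 514 had an unadjusted p under 0.05 in edgeR and DESeq2 called 0. Among the genes with the smallest p-values were cxcl12a and ctsla, which were called between the single kinds, and txn and sele, which were not (edgeR adjusted p = 0.0563 for txn and 0.0599 for sele). txn, a thioredoxin gene, had a log2 fold change of 1.43 ± 0.32 over blood-only wells (SE, edgeR adjusted p = 0.0553). cxcl12a had 573, 467 and 50.4 CPM in mixed wells, against 113, 117 and 155 in blood-only wells and 787, 1015 and 673 in lymphatic-only wells. Mixed wells lay between the kinds on plates 1 and 2 and below both on plate 3. The plate 3 value of mixed wells is 1 UMI, so its place below blood-only wells is uncertain. The log2 fold change of cxcl12a over blood-only wells was 1.86 ± 0.39 (SE, edgeR adjusted p = 0.0553), and the call was made under 6 of 14 alternatives. ctsla had 1150, 753 and 807 CPM in mixed wells, against 497, 470 and 271 in blood-only wells and 1438, 1861 and 1347 in lymphatic-only wells. Its mixed values stood between the kinds on every plate, without overlap. The log2 fold change of ctsla was 1.00 ± 0.24 over blood-only wells and -0.80 ± 0.22 over lymphatic-only wells (SE, edgeR adjusted p = 0.0656 and 0.174).

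On the blood side the nearest to a call was lpl, the lipoprotein lipase gene. lpl had 103, 339 and 504 CPM in mixed wells, against 291, 783 and 890 in blood-only wells and 54.3, 197 and 207 in lymphatic-only wells, and mixed wells lay between the kinds on each plate. Its log2 fold change over blood-only wells was -1.26 ± 0.28 (SE, edgeR adjusted p = 0.0553). plvapa (row si:dkey-208k22.3), a relative of plvapb, had 284, 403 and 605 CPM in mixed wells, against 544, 1201 and 774 in blood-only wells and 54.3, 254 and 51.8 in lymphatic-only wells. Its log2 fold change over blood-only wells was -1.16 ± 0.28 (SE, edgeR adjusted p = 0.0656), and it too lay between the kinds on each plate. cdh5, which encodes an adhesion molecule of endothelial junctions, had 370, 408 and 908 CPM in mixed wells, against 788, 1227 and 697 in blood-only wells and 271, 338 and 155 in lymphatic-only wells. cdh5 was lower than in blood-only wells on plates 1 and 2 and higher on plate 3, with a log2 fold change of -1.07 ± 0.30 (SE, edgeR adjusted p = 0.14).

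On the lymphatic side, flt4 and wnt16 took middle values. Like ctsla, lpl, plvapa and kdrl above, they were called between the single kinds on these same sums. Where the single kinds lie far apart, a level between them is easily reached, so the middle place of these genes is a description. The share of all tested genes that lay between the kinds was not worked out. flt4, the receptor gene for lymphatic growth factors, had 551, 594 and 555 CPM in mixed wells, against 394, 235 and 426 in blood-only wells and 760, 1100 and 1036 in lymphatic-only wells. Its log2 fold change was 0.71 ± 0.27 against blood-only wells and -0.72 ± 0.26 against lymphatic-only wells (SE, edgeR adjusted p = 0.383 and 0.339). flt4 levels in mixed wells were alike on the 3 plates and overlapped neither single kind. wnt16, a Wnt ligand gene, had 439, 446 and 353 CPM in mixed wells, against 300, 157 and 193 in blood-only wells and 678, 733 and 777 in lymphatic-only wells. Its mixed levels also fell between the single kinds without overlap.

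sele did not take a middle place on every plate. This gene, which encodes an adhesion molecule of activated and venous endothelium, had 487, 366 and 404 CPM in mixed wells, against 160, 78.3 and 271 in blood-only wells and 271, 254 and 1140 in lymphatic-only wells. Mixed wells were above blood-only wells on each plate, and above lymphatic-only wells on plates 1 and 2 only. Of the 41 sele UMIs in lymphatic-only wells, 15 came from a single well. The higher lymphatic-only level on the remaining plate leans on that well, so the order there is uncertain. The log2 fold change of sele over blood-only wells was 1.60 ± 0.39 (SE, edgeR adjusted p = 0.0656).

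**Figure D4:**
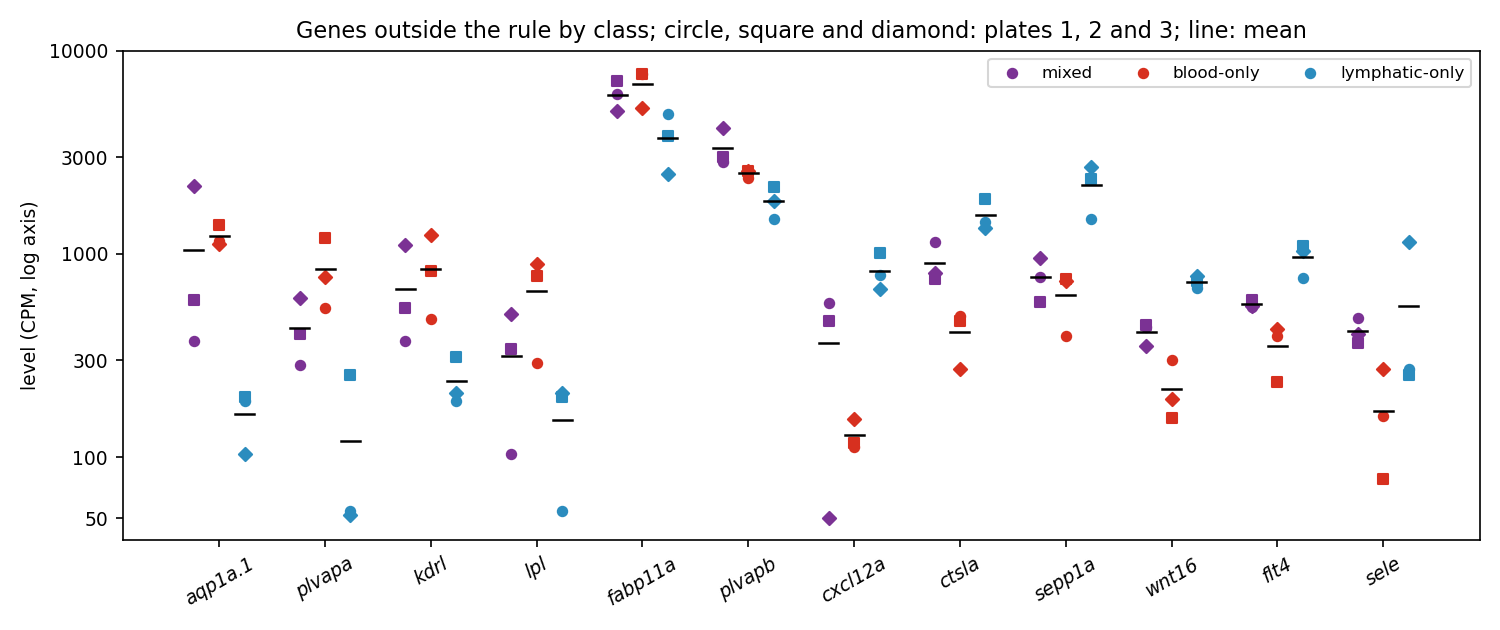
Levels of 12 genes outside the rule in CPM on a log axis, summed per plate (circle, square and diamond for plates 1, 2 and 3) for mixed, blood-only and lymphatic-only wells, with a line at the mean. ctsla and flt4, which were called between the single kinds, lie between those kinds without overlap in mixed wells. The flt4 level of mixed wells on plate 3 rests on few UMIs. plvapb of mixed wells lies above both kinds before thinning. aqp1a.1 and cxcl12a of mixed wells spread widely with plate 3 apart from the others, where cxcl12a is 1 UMI.

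Against the pool of all single-kind wells, 1 of 1633 genes was called (0.0612%), with 80 at an unadjusted p under 0.05 and 0 called by DESeq2. This gene was mmp9, a matrix metalloproteinase gene typical of neutrophils, with a log2 fold change of -3.14 ± 0.53 (SE, edgeR adjusted p = 0.0118). It had 10 UMIs in mixed wells, against 62 in blood-only and 11 in lymphatic-only wells, and 52 of the 62 came from 1 blood-only well of plate 1 in which 9.13% of UMIs were of neutrophil markers. All 7 neutrophil markers had a UMI in blood-only wells and 6 in mixed wells, where npsn was at 0. Their summed level was 15.9 to 202 CPM in mixed wells, against 26.1 to 3153 in blood-only wells and 0 to 673 in lymphatic-only wells. Without wells rich in other cell types no gene was called against the pool, and without plate 1 the log2 fold change of mmp9 was -0.85 (edgeR adjusted p = 0.998). The mmp9 call was also lost without plate 2 (edgeR adjusted p = 0.826). Against the mean of the log levels of both single kinds, 0 of 514 genes were called (0%), with 12 at an unadjusted p under 0.05 and 0 called by DESeq2, and vsg1 had the smallest p with a log2 fold change of 0.54 ± 0.11 (SE, edgeR adjusted p = 0.0689).

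The split by leading marker separated the same genes further, as a description since the lead was read from the rule's genes. On plates 1 and 2, where each lead had at least 8 wells, cxcl12a stood at 1517 and 1309 CPM in L-led wells and 187 and 272 in aqp8a.1-led wells. cxcl12a had a UMI in 24 of 26 L-led wells and 34 of 152 aqp8a.1-led wells. ctsla stood at 2209 and 1756 CPM in L-led wells and 727 and 531 in aqp8a.1-led wells, and wnt16 at 857 and 1597 in L-led wells and 277 and 199 in aqp8a.1-led wells.

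Genes of the blood side ran the other way. aqp1a.1 stood at 49.5 and 95.8 CPM in L-led wells of plates 1 and 2 and 521 and 718 in aqp8a.1-led wells. plvapa (row si:dkey-208k22.3) stood at 33.0 and 31.9 in L-led wells and 405 and 492 in aqp8a.1-led wells, and lpl at 33.0 and 63.9 in L-led wells and 135 and 405 in aqp8a.1-led wells. These L-led values rest on 6, 3 and 4 UMIs over all plates. With so few UMIs no order against lymphatic-only wells is read from them. plvapb (row vsg1) stood at 3462 and 3641 CPM in L-led wells and 2592 and 2917 in aqp8a.1-led wells, each above both single kinds of its plate. aqp8a.1-led wells held less aqp1a.1, plvapa, kdrl and lpl than blood-only wells on these plates.

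**Figure D5:**
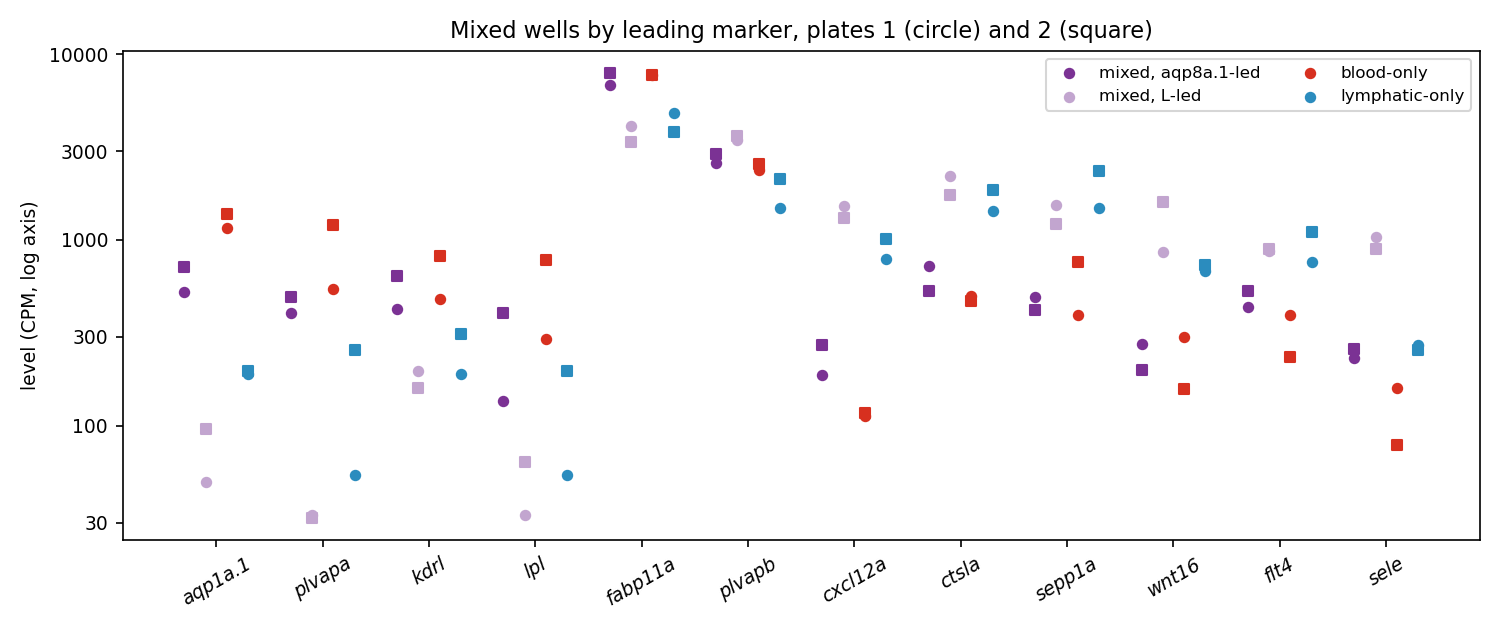
Levels in CPM on a log axis for the same 12 genes on plates 1 (circle) and 2 (square), with mixed wells split into aqp8a.1-led and L-led and set beside blood-only and lymphatic-only wells. L-led wells have less aqp1a.1, plvapa and lpl and more cxcl12a and ctsla than aqp8a.1-led wells. plvapb lies above both single kinds in mixed wells of both leads before thinning, and the leads were not compared in thinned wells. The L-led values of aqp1a.1, plvapa and lpl rest on few UMIs, and no order against lymphatic-only wells is read from them.

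Summed over marker lists without the rule's genes, the 7 blood vessel markers had 4302, 5096 and 8828 CPM in mixed wells of plates 1, 2 and 3, against 5132, 7073 and 6230 in blood-only and 2578, 3131 and 2486 in lymphatic-only wells. Mixed wells lay below blood-only wells on plates 1 and 2 and above them on plate 3. vsg1 is the most abundant of these markers, and without it the other 6 stood at 1477, 2100.1 and 4641 CPM in mixed wells, against 2759, 4502 and 3676 in blood-only wells and 1086, 987 and 673 in lymphatic-only wells. The 10 lymphatic markers summed to 2043 ± 241 CPM in mixed wells, against 1390 ± 171 in blood-only and 2854 ± 675 in lymphatic-only wells. Of 6 blood vessel markers tested against lymphatic-only wells, 1 rose (vsg1) and 5 did not pass. Their median log2 fold change was 1.14 against -0.01 over all 514 genes. Of all 514 genes, 2 rose in that contrast (0.389%) and 0 were called against blood-only wells (0%). Of the same 6 against blood-only wells none passed, with a median log2 fold change of -0.67 against -0.02 over all genes. Of the lymphatic markers 2, flt4 and tbx1, had enough UMIs to be tested against each single kind, and neither passed. tbx1 did not share the order of flt4. Its log2 fold change against lymphatic-only wells was positive in mixed wells and in blood-only wells. Against the pool 8 lymphatic markers were tested and 0 called, 5 with a positive and 3 with a negative log2 fold change. Of 6 blood vessel markers 0 were called there, 1 positive and 5 negative. The medians were 0.11 and -0.29 against -0.02 over all 1633 genes, of which 1 was called (0.0612%).

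Endocytosis and lysosome genes, known to be prominent in lymphatic endothelium, summed to 3774 ± 765 CPM in mixed wells, against 3030 ± 421 in blood-only and 6046 ± 568 in lymphatic-only wells (SD, n = 3 plates each). None of the 4 tested members, lgmn, ctsla, cd63 and ap2m1a, passed in either contrast. Transport and barrier genes summed to 9828 ± 967 CPM in mixed wells, against 11610 ± 1560 in blood-only and 6234 ± 1777 in lymphatic-only wells. Of the 5 tested, fabp11a rose against lymphatic-only wells, and lpl, cav1, cavin1b and cavin2b did not pass. Arterial genes stood at 1068 ± 184 CPM in mixed wells, against 1620 ± 553 in blood-only and 1216 ± 292 in lymphatic-only wells, and none of 3 tested passed. None of 9 pan-endothelial genes tested passed. Their summed levels were 5479 ± 1481 in mixed wells, 5888 ± 740 in blood-only and 4659 ± 397 in lymphatic-only wells. Of all 514 genes, 2 were higher (0.389%) and 1 lower (0.195%) than in lymphatic-only wells, and 0 differed from blood-only wells (0%). At such shares a list with 0 called says little about its members.

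Muscle genes summed to 414 to 908 CPM over the plates in mixed wells, against 271 to 413 in blood-only and 1036 to 1818 in lymphatic-only wells. All 3 classes had UMIs of 11 of 16 muscle genes, and myhz1.3, a myosin heavy chain gene and 1 of the 6 lymphatic-side genes picked for all plates, supplied 160 UMIs in mixed wells, 40 in blood-only and 68 in lymphatic-only wells. Without genes of other cell types among the side genes, the positions of mixed wells were 0.23, 0.51 and 1.07, a mean of 0.60 ± 0.43 (SD, n = 3 plates). Immediate-early and dissociation stress genes summed to 11299 ± 1882 CPM in mixed wells, against 9865 ± 1947 in blood-only and 13209 ± 672 in lymphatic-only wells (SD, n = 3 plates each). Of these, 14 were tested, and 0 were called in mixed wells against blood-only or against lymphatic-only wells. Of all 514 genes, 0 (0%) and 3 (0.584%) were called in these contrasts. The 1 muscle gene tested, myhz1.3, was not called in either contrast. Between the single kinds it was called, lower in blood-only wells, with a log2 fold change of -1.985 ± 0.367 (SE, edgeR adjusted p = 0.002845). There 2 of the 14 immediate-early and stress genes were also called lower in blood-only wells, against 16 of all 514 genes (3.11%). The part of muscle and immediate-early genes in the results was not tested. Ribosomal protein genes took 16.4% ± 0.56 of UMIs in mixed wells, against 16.2% ± 1.29 in blood-only and 16.5% ± 0.75 in lymphatic-only wells. Globin and other erythroid UMIs in mixed wells came largely from 1 well of plate 2, which held 476 of the 535 UMIs of the erythroid list.

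At equal depth, mixed wells and the pool held close to the same number of genes. With each well thinned to 500 UMIs, the median number of genes per well was 314 ± 7.65 in mixed wells and 312 ± 14.1 in the single-kind pool (SD, n = 3 plates each). The difference was 1.83 ± 7.77 genes (SD over plates), and mixed wells were higher on 1 of 3 plates (two-sided exact permutation test over plates, p = 1, where the smallest possible is 0.25). Before thinning the difference was 184 genes. Co-occurrence of markers outside the rule was read the same way. At 500 UMIs, 44.9% ± 2.43 of mixed wells held both a blood vessel and a lymphatic marker outside the rule, against 35.9% ± 1.85 of blood-only wells, 45.4% ± 6.50 of lymphatic-only wells and 39.2% ± 3.21 of the pool. The share was above that of the pool on 3 of 3 plates, by 5.71 ± 1.19 percentage points (two-sided exact permutation test, p = 0.25, the smallest that 3 plates allow). Against lymphatic-only wells the difference was -0.42 ± 4.33 points, with mixed wells higher on 1 of 3 plates. These differences moved with the depth chosen. At 1000 UMIs, which 7 mixed wells of plate 3 reached, mixed wells differed from the pool by -10.4, 17.9 and 31.4 points on plates 1, 2 and 3, higher on 2 of 3 plates (exact permutation test, p = 0.5). At 1000 UMIs they stood above lymphatic-only wells by 2.5, 27.6 and 28.6 points, a mean of 19.6 ± 14.8 (exact permutation test, p = 0.25). Without thinning the share was 82.5% ± 7.85 in mixed wells and 60.1% ± 10.2 in the pool, and mixed wells were above lymphatic-only wells by 18.4 ± 11.3 points.

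Mixed wells were spread over the plates. Rows A to H held 28.3%, 27.7% and 18.1% mixed wells on plates 1, 2 and 3, and rows I to P held 33.1%, 31.3% and 15.0%. Since wells at 1 coordinate carry the same barcode on every plate, coordinates were compared between plates. A mixed well occurred at 113 coordinates on 1 plate, at 36 on 2 plates and at 1 on all 3. The plates had 89, 80 and 19 mixed wells over 384 coordinates. The overlap expected from these numbers was not worked out, so the counts are a description. Among wells of plate 1 with some L, 18 of 33 were mixed where plate 2 had at least 20 aqp8a.1 UMIs at that coordinate, and 71 of 138 where it had fewer, which is 54.5% and 51.4%. Among wells of plate 2 with some L, 17 of 27 were mixed where plate 1 had at least 20 aqp8a.1 UMIs, and 63 of 132 where it had fewer, which is 63.0% and 47.7%. On plate 3 the shares were 4 of 10 against 15 of 50 by plate 1, and 3 of 5 against 16 of 55 by plate 2. By plate 3 they ran the other way, with 1 of 2 against 66 of 124 on plate 1. On plate 2 they were 0 of 2 against 58 of 114 by plate 3. These sets are small, and the part of shared barcodes in the mixed wells was not tested further.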

How the data were processed

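UMI counts per gene and well were deposited by the authors for 3 MARS-seq plates, with no normalization, together with well coordinates and a list of analysed wells. The submitters' processing notes name Bowtie2 and the genome build GRCz10. For the annotation and for how UMIs were collapsed, nothing is given in the sources used here. The tables hold 25839 rows, and all 92 spike-in rows were at 0. plvapb was read from the row vsg1 and plvapa from si:dkey-208k22.3, by synonyms in a RefSeq table. That table follows another assembly, so no coordinates or sequences are given. The members and gene lists were chosen with earlier results of these data known.

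Listed wells of at least 500 UMIs were classed by the rule in each plate, and their counts were summed per plate and class without the 5 rule genes and spike-ins. edgeR 4.0.16 (R 4.3.3) was used with TMM scaling, filterByExpr and plate as a block, since the classes of a plate share its libraries. The pool was tested in a fit of its own with the mixed wells, and the 2 single kinds in a fit with 3 sums per plate. An adjusted p under 0.05 (Benjamini-Hochberg) was called. DESeq2 1.42.0 was an alternative. Only the edgeR fits were tested on simulated counts, drawn with the same spread for all genes and no difference between plates. The classing, thinning and placing of wells were not tested in this way. Genes named with a test were, per contrast, up to 10 called genes per direction by fold change with the same direction on 3 plates, otherwise up to 5 with the smallest p, and members of the gene lists.

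The thinning drew UMIs without replacement (seed 1, Python 3.11.15, numpy 2.4.6). Side genes needed 20 UMIs in the 2 ranking plates, and ratios had 0.5 added to both sums. Depth ranged from 502 to 9496 UMIs in the compared wells, and intervals cover counting error only. Wells off the authors' list entered no comparison.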

Additional observations from a re-analysis of the deposited data

Results flagged for a closer look

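The authors' list left out 116 wells of plate 3, which hold 76768 UMIs and have a median of 296.5 UMIs. These wells entered no comparison above. Among them 45 reached 500 UMIs, and 6 of the 45 met the mixed rule, which is 13.3% with an exact binomial 95% interval of 5.05% to 26.8%. The listed wells of plate 3 had 17.0%. The interval covers counting error only, and the shares were not matched for depth, so they are a description and were not compared by a test. The 6 wells had a median depth of 1848.5 UMIs and held 220 aqp8a.1 UMIs and 14 L UMIs in all. They were singled out because a signal appears in wells that the report's comparisons do not use. Why the wells were left off the list is not stated in the labels.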

How the results depend on the processing

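The numbers of genes called were small and moved with most settings. Against the pool, 1 gene was called. Without the replicate block, in DESeq2, with library totals instead of TMM, with classes from thinned counts and without wells rich in other cell types the count was 0. It was 4 with no low-count filter and with single-kind wells matched for depth, 2 with a minimum of 1000 UMIs, with at least 5 aqp8a.1 UMIs and in wells of 500 to 1500 UMIs, and 6 with an L of at least 2. Leaving out a plate gave 0 to 9, the highest without plate 3. Against blood-only wells, 0 genes were called (49 at an unadjusted p under 0.05, and 0 by DESeq2), and 0 without the replicate block. The count was 7 with library totals and with a minimum of 300 UMIs, 6 with no low-count filter and with an L of at least 2, 3 with the rule's genes kept in the totals, and 2 in wells of 500 to 1500 UMIs. Leaving out a plate gave 0 to 3. Against lymphatic-only wells, 3 genes were called, 2 without the replicate block and 4 in DESeq2. The count was 15 with no filter, 13 with classes from thinned counts, 14 with at least 5 aqp8a.1 UMIs and in wells of 500 to 1500 UMIs, 1 with an L of at least 2 and 0 with a minimum of 1000 UMIs. Leaving out a plate gave 0 to 4. Between the single kinds, 32 genes were called, with 20 without the replicate block, 15 at 500 UMIs, 3 with a minimum of 1000 UMIs, 10 with an L of at least 2 and 1 to 24 without a plate. Against the mean of the single kinds 0 genes were called, with 1 under library totals and under a minimum of 300 UMIs, and 3 with no filter.

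The mean position between the kinds ran from 0.57 to 0.87 under the alternatives that used all plates and from 0.49 to 0.88 without a plate, while single plates ran from -0.18 to 0.57 on plate 1, 0.51 to 0.94 on plate 2 and 0.55 to 1.28 on plate 3. The mean share of mixed wells, 25.8%, was 13.6% with an L of at least 2 and 8.14% with classes from thinned counts, and 23.2% to 30.2% without a plate. The difference in genes per well was 1.83 at 500 UMIs, 184 with no thinning and -2.5 to 5 without a plate. The call of fabp11a against lymphatic-only wells was lost without the replicate block (edgeR adjusted p = 0.312), while those of vsg1 and sepp1a were made there. Of 47 gene results, 5 changed sign in some setting, none of them called there. With classes from thinned counts, log2 fold changes were -0.11 for ctsla and -0.15 for vsg1 against blood-only wells, and -0.022 for vsg1 against the pool. Against blood-only wells, vsg1 was at -0.012 at 500 UMIs and -0.064 in wells of 500 to 1500 UMIs, where wnt16 was at -0.14 and sepp1a at -0.094. sepp1a was at -0.19 to 0.76 without a plate and -0.16 with at least 5 aqp8a.1 UMIs. The causes were not tested. Depth matching was run for the pool alone, since single kinds had fewer wells than mixed wells on plates 1 and 2, and it left mixed wells deeper. The windows of 500 to 1500 UMIs, the side genes without other cell types and the position without wells rich in them were chosen after the data had been seen. Plate 3, with 19823 UMIs in mixed wells, limits what the tests can show.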
